A study of Mus musculus with 9 samples.

Results

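Atf3, the AP-1 subunit genes Fos, Fosb, Fosl2, Jun, Junb and Jund, and the immediate-early genes Egr1, Ier2 and Dusp1 were followed in CD11b+ bone marrow cells of 9 mice. They are 10 of the 23337 genes in the count tables. The genes were named by family and chosen by values of these same libraries, in which Atf3 and Fos were known to be lower after vesicle injection, so their levels are given as a description and no test is used as support for them. All 10 passed the filter on low counts, which 12553 genes passed.

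Male C57BL/6 mice aged 3 to 6 weeks received 3 tail vein injections of 100 µl, on days 1, 3 and 5. The PBS group received phosphate buffered saline, and the EnzR EV group received 10 µg of vesicle protein per injection. EnzR EVs are extracellular vesicles from CWR-R1, a human prostate cancer cell line, in its enzalutamide-resistant form. The third group (EnzR EV + HDL NP) received the same vesicles and, on days 0, 2 and 4, HDL NPs, which are nanoparticles with a gold core, phospholipids and apolipoprotein A-1 made to resemble high-density lipoprotein. Each group held 3 mice, and each library came from 1 mouse. The HDL NP concentration is 1 µM in the sample labels and 100 µM in the study's methods. No group received HDL NPs alone or vesicles from another cell line, so a comparison with PBS does not separate these vesicles from any injected vesicle. Marrow was flushed from femurs and tibias, red cells were lysed, CD11b+ myeloid cells were selected with an immunomagnetic kit, and cells were taken 24 h after the last injection.

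Immediate-early genes are switched on within minutes of a stimulus without new protein synthesis, and their RNAs are short-lived. Fos and Jun proteins pair through leucine zippers as AP-1, a transcription factor that binds the TGANTCA site, and ATF3 is a stress-induced bZIP protein that pairs with Jun proteins and often represses inflammatory genes in myeloid cells. EGR1 is a zinc finger transcription factor, IER2 a small nuclear protein, and DUSP1 a phosphatase that switches off p38 and JNK, the kinases that activate many of these genes.

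The promoters of 3 genes whose levels were alike over mice (Atf3, Fos and Dusp1) and of Jun, which did not follow them, are shown for the sites such genes are known to share. Each run is the 250 bases before the RefSeq start (GRCm38.p6), read 5′ to 3′ on the gene's strand. Capitals mark the letters of AP-1 (TGANTCA), the cyclic AMP response element or CRE (TGACGTCA), its form with any base in the middle (TGACNTCA), the CRE core (TGACG, which also lies within the CRE), the serum response CArG box and the TATA box (TATAAA), searched on both strands. Atf3 lies at chr1:191170296-191183333 on the minus strand and its window is chr1:191183334-191183583. The Fos window is chr12:85473640-85473889 on the plus strand, that of Dusp1 is chr17:26508473-26508722 on the minus strand, and that of Jun is chr4:95052223-95052472 on the minus strand.
Atf3: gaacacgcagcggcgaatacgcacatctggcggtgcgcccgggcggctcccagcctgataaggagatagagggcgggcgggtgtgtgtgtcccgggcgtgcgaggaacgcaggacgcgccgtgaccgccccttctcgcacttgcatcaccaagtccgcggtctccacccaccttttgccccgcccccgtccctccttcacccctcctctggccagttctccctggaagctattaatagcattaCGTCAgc
Fos: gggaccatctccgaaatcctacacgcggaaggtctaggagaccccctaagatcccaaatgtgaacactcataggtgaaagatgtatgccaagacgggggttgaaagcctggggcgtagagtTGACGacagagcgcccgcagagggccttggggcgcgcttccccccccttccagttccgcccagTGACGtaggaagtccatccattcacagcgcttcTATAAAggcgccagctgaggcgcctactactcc
Dusp1: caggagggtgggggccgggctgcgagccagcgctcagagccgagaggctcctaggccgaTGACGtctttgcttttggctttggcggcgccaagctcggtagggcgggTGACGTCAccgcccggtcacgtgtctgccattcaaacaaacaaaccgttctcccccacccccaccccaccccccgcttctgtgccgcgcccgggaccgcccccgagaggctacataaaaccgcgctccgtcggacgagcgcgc
Jun: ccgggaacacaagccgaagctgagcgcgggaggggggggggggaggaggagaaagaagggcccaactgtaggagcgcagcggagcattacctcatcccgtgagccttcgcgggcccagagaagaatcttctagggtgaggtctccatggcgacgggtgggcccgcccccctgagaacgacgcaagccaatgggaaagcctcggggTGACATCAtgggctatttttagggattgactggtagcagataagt

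Of the 10 genes, 8 had a promoter in the table, all but Egr1 and Ier2. The CRE core stood in 5 of the 8 windows (Atf3, Fos, Fosb, Junb and Dusp1), against 17.8% of all 32851 promoters of the same length. Dusp1 held a full CRE from 143 to 136 bases before its start, a site in 1.55% of promoters, and another core at 191 to 187. Fos held cores at 129 to 125 and 66 to 62 and a TATA box at 33 to 28. In Atf3 the core lay at 7 to 3 bases. Jun held TGACATCA at 45 to 38, one form of TGACNTCA, which 7.49% of promoters held. That form was added to the search after the windows had been read. The AP-1 site (6.75% of promoters) and the CArG box (1.47%) were in none of the 8 windows, and TATAAA (12.4%) was in that of Fos alone. The EGR site GCGNGGGCG (4.70%) was in Fosb and Fosl2, and the Sp1 box GGGCGG (32.7%) in 6, and these are not capitalised. A match describes the letters only. Bases outside these windows, and the promoters of Egr1 and Ier2, were not searched, so a site absent here may lie elsewhere.

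The libraries held between 2575776 and 18110561 counts in genes. They differed in the share of counts on Rn45s, the precursor of ribosomal RNA, which was 20.3% in PBS mouse 1, 42.7% in EnzR EV mouse 1 and 14.2% in EnzR EV mouse 3, and 0.657% to 2.87% in the other 6. Those 3 libraries were also the smallest. The 3 with high Rn45s thus lie in the PBS and EnzR EV groups and none in the third. The selected surface receptor genes (Itgam and Itgb2) summed to 2759 to 3607 CPM in every library, and granulocyte genes such as S100a8 and Ltf had counts in every library. Levels are CPM, the counts scaled to a common library size with TMM adjustment, and the floor of 3 counts corresponds to 0.160 to 1.65 CPM, below every value of the 10 genes.

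Of the 10 genes, Atf3 differed most between EnzR EV and PBS mice in the fit over all 9 libraries. Without PBS mouse 1 the log2 fold change of Ier2 (1.33) was further from 0 than that of Atf3 (−1.28). Atf3 measured 87.1, 82.0 and 97.7 CPM in PBS mice 1 to 3, 34.6, 45.2 and 30.7 in EnzR EV mice, and 43.1, 59.0 and 58.8 in EnzR EV + HDL NP mice. Every mouse of both vesicle groups lay below every PBS mouse, whereas the vesicle groups overlapped, since EnzR EV + HDL NP mouse 1 was below EnzR EV mouse 2. The group means were 88.9 ± 7.97 in PBS, 36.8 ± 7.51 in EnzR EV and 53.6 ± 9.10 in EnzR EV + HDL NP (SD, n = 3). Atf3 was 2.40-fold lower in EnzR EV than in PBS mice (log2 fold change −1.26, SE 0.20). In EnzR EV + HDL NP mice it was −0.73 (SE 0.20) relative to PBS and 0.53 (SE 0.20) relative to EnzR EV. Of 7 macrophage marker genes, 6 were lower in EnzR EV than in PBS mice (median log2 fold change −0.72) and all 7 in EnzR EV + HDL NP mice (median −0.56), none of them called by edgeR or DESeq2. Erythroid and B cell markers had medians of −0.88 and −0.83 in EnzR EV against PBS. The part of these cell types in the Atf3 values was not tested.

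Fos, the rapidly induced partner of Jun proteins, measured 1172, 1326 and 1332 CPM in PBS mice, 675, 985 and 741 in EnzR EV mice, and 702, 1112 and 902 in EnzR EV + HDL NP mice. All 6 vesicle-treated mice were below the 3 PBS mice, and the vesicle groups overlapped. The log2 fold changes were −0.67 (SE 0.21) for EnzR EV and −0.50 (SE 0.21) for EnzR EV + HDL NP relative to PBS, and 0.18 (SE 0.21) between the vesicle groups.

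Dusp1, the phosphatase of the set, measured 480, 499 and 434 CPM in PBS mice, 296, 395 and 290 in EnzR EV mice, and 316, 431 and 404 in EnzR EV + HDL NP mice. Its order over mice resembled that of Fos, with both vesicle groups below PBS and overlapping each other. The log2 fold changes relative to PBS were −0.53 (SE 0.19) and −0.30 (SE 0.18), the latter being −0.16 without EnzR EV + HDL NP mouse 1. Between the vesicle groups the log2 fold change was 0.23 (SE 0.19).

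**Figure D1:**
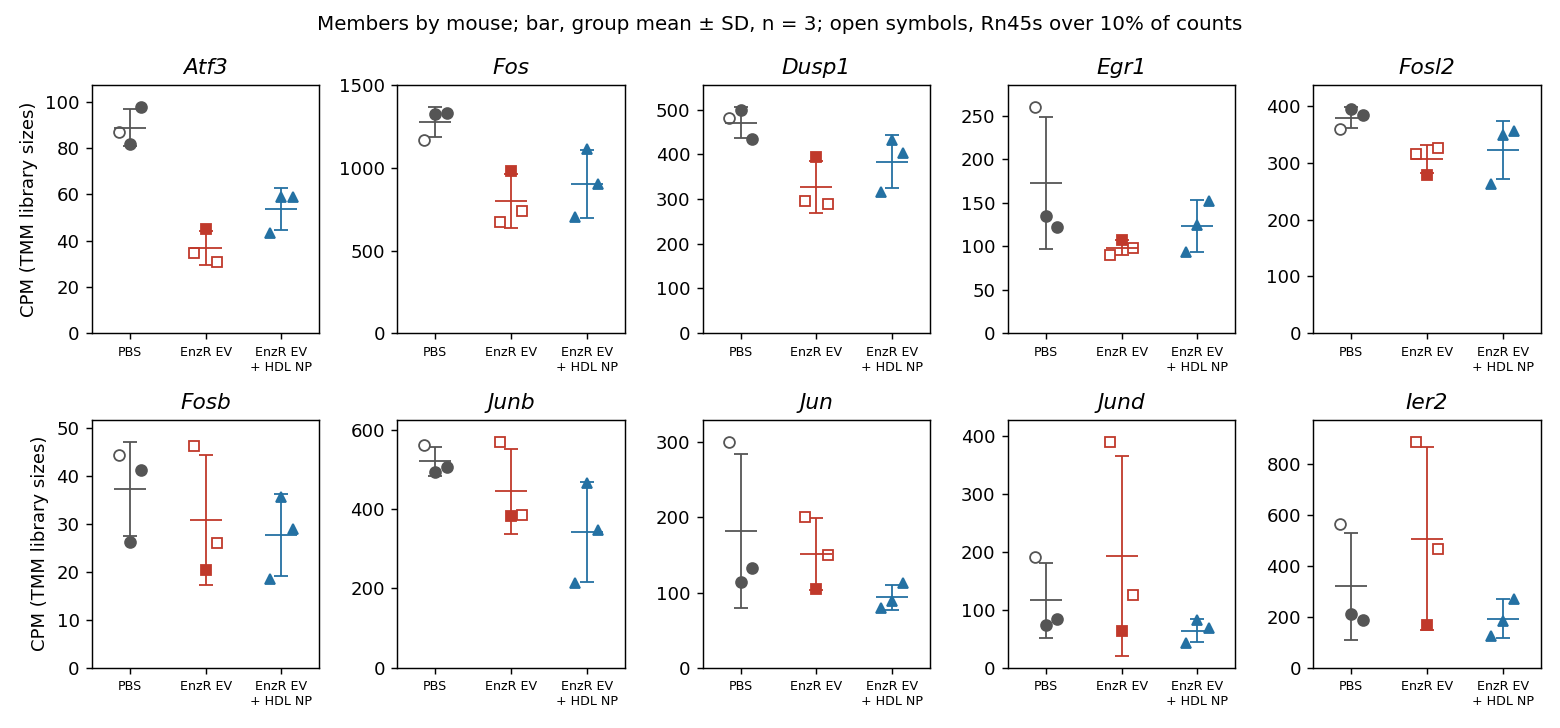
CPM of each gene in each mouse (points), with the group mean and SD (bars, n = 3) and open symbols for libraries with over 10% of counts on Rn45s. Atf3, Fos and Dusp1 were lower in all vesicle-treated mice than in PBS mice, while the highest Ier2 and Jund values were the open symbols.

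Fosl2, which encodes FRA-2 and responds more slowly than Fos, showed a narrower difference. It measured 360, 394 and 385 CPM in PBS mice, 316, 279 and 326 in EnzR EV mice, and 263, 348 and 356 in EnzR EV + HDL NP mice. Both vesicle groups lay wholly below PBS, with log2 fold changes of −0.31 (SE 0.16) and −0.24 (SE 0.16), but the highest EnzR EV + HDL NP mouse (356) came within a few CPM of the lowest PBS mouse (360). Leaving out EnzR EV + HDL NP mouse 1 brought the value of that group relative to PBS to −0.10. Between the vesicle groups the log2 fold change was 0.07 (SE 0.16).

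Egr1 measured 260, 135 and 122 CPM in PBS mice, 89.4, 107 and 98.0 in EnzR EV mice, and 93.0, 125 and 152 in EnzR EV + HDL NP mice. The EnzR EV group lay wholly below PBS, the EnzR EV + HDL NP group overlapped both, and PBS mouse 1 stood far above all other mice. The log2 fold change was −0.80 (SE 0.29) for EnzR EV and −0.48 (SE 0.29) for EnzR EV + HDL NP relative to PBS. Leaving out PBS mouse 1 brought these to −0.39 and −0.06.

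Fosb, a relative of Fos that also occurs as a truncated form, measured 44.4, 26.1 and 41.1 CPM in PBS mice, 46.1, 20.3 and 26.0 in EnzR EV mice, and 18.6, 35.6 and 28.8 in EnzR EV + HDL NP mice. All 3 groups overlapped. The log2 fold changes in the 3 comparisons were −0.33 (SE 0.34), −0.42 (SE 0.33) and −0.10 (SE 0.34). They were of about the size of their errors or smaller, with −0.42 somewhat above its SE. For EnzR EV relative to PBS the value was −0.68 without EnzR EV mouse 1 and −0.06 without EnzR EV mouse 2. For EnzR EV + HDL NP relative to PBS it was −0.19 without mouse 1 of that group and −0.65 without its mouse 2.

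Junb, a Jun protein that tempers AP-1 activity and is high in myeloid cells, measured 562, 493 and 504 CPM in PBS mice, 568, 382 and 384 in EnzR EV mice, and 214, 465 and 347 in EnzR EV + HDL NP mice. EnzR EV mouse 1 was the highest of all 9, so that group overlapped PBS, while the EnzR EV + HDL NP group lay wholly below PBS. The log2 fold changes relative to PBS were −0.23 (SE 0.27) and −0.60 (SE 0.27). For EnzR EV the value was −0.44 without its mouse 1 and −0.10 without its mouse 2. For EnzR EV + HDL NP it was −0.35 without its mouse 1 and −0.90 without its mouse 2.

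Jun, Jund and Ier2 were highest in the 3 libraries with over 10% Rn45s. Jun, the founding AP-1 partner of Fos, measured 299.9, 114 and 132 CPM in PBS mice, 200.3, 104 and 151 in EnzR EV mice, and 79.6, 89.4 and 112 in EnzR EV + HDL NP mice. PBS mouse 1 was the highest, and every EnzR EV + HDL NP mouse was below every PBS mouse. Its log2 fold change relative to PBS was −0.27 (SE 0.36) for EnzR EV and −0.95 (SE 0.36) for EnzR EV + HDL NP. Without PBS mouse 1 these were 0.28 and −0.40.

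Jund, the constitutive Jun family member, measured 190 CPM in PBS mouse 1 and 389 in EnzR EV mouse 1, against 74.5 and 84.0 in the other PBS mice, 63.4 and 126 in the other EnzR EV mice, and 42.6, 81.8 and 67.8 in EnzR EV + HDL NP mice. Ier2 measured 564, 211 and 188 CPM in PBS mice, 887, 170 and 468 in EnzR EV mice, and 123, 186 and 272 in EnzR EV + HDL NP mice. The groups overlapped in every comparison for both genes. Their fitted log2 fold changes for EnzR EV relative to PBS were 0.71 (SE 0.59) for Jund and 0.66 (SE 0.57) for Ier2, the 2 of the 10 above 0. Without EnzR EV mouse 1 they were −0.29 for Jund and −0.00 for Ier2, and without PBS mouse 1 they were 1.24 and 1.33. For EnzR EV + HDL NP relative to PBS they were −0.86 (SE 0.58) and −0.72 (SE 0.57), and −0.31 and −0.04 without PBS mouse 1.

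Across the set, 8 of 10 genes had a log2 fold change below 0 in EnzR EV against PBS, where 53.5% of all genes did, with a median of −0.32 against −0.03 over all genes. For 5 genes (Atf3, Fos, Fosl2, Egr1 and Dusp1) the EnzR EV values lay wholly below those of PBS, as they did for 4.52% of all genes. These counts rest on the contrast that drew attention to the genes and are not read as evidence of it. Set against PBS, all 10 were below 0 in EnzR EV + HDL NP mice (51.1% of all genes), with a median of −0.55 against −0.01, and 6 did not overlap (6.21% of all genes lay wholly below). The median of the 10 was −0.30 without PBS mouse 1 and −0.34 without EnzR EV + HDL NP mouse 1, and in EnzR EV against PBS it was −0.16 without EnzR EV mouse 2 and −0.48 without either EnzR EV mouse 1 or PBS mouse 2. Between the vesicle groups, 5 were higher with HDL NPs and 5 lower (52.8% of all genes above), and none lay wholly above, against 8.99% of all genes. The values furthest from 0 in that comparison were Jund at −1.57 (SE 0.60), Ier2 at −1.39 (SE 0.58) and Jun at −0.68 (SE 0.36), followed by Atf3 and by Junb at −0.38 (SE 0.27), Egr1 being 0.32 (SE 0.29). Without EnzR EV mouse 1 Jund was −0.57 and Ier2 −0.73, and without the 3 high-Rn45s libraries they were 0.01 and 0.18. Both vesicle groups were set against the same PBS mice, and the EnzR EV mice also serve in the last comparison. In bulk RNA, fewer cells of a type and less RNA per cell cannot be told apart.

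In the model across all genes few genes were called. The quasi-likelihood test of edgeR called 0 of 12553 genes (0%) in each of the 3 comparisons at an adjusted p under 0.05, with 436, 268 and 1325 genes at an unadjusted p under 0.05 and 0 by limma voom. DESeq2 called 14 of 10776 genes (0.130%) in EnzR EV against PBS, 1 of the 10 genes (Atf3) among them, from which nothing is read since the contrast chose it, 2 of 18794 (0.0106%) in EnzR EV + HDL NP against PBS and 1 of 18794 (0.00532%) in EnzR EV + HDL NP against EnzR EV.

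**Figure D2:**
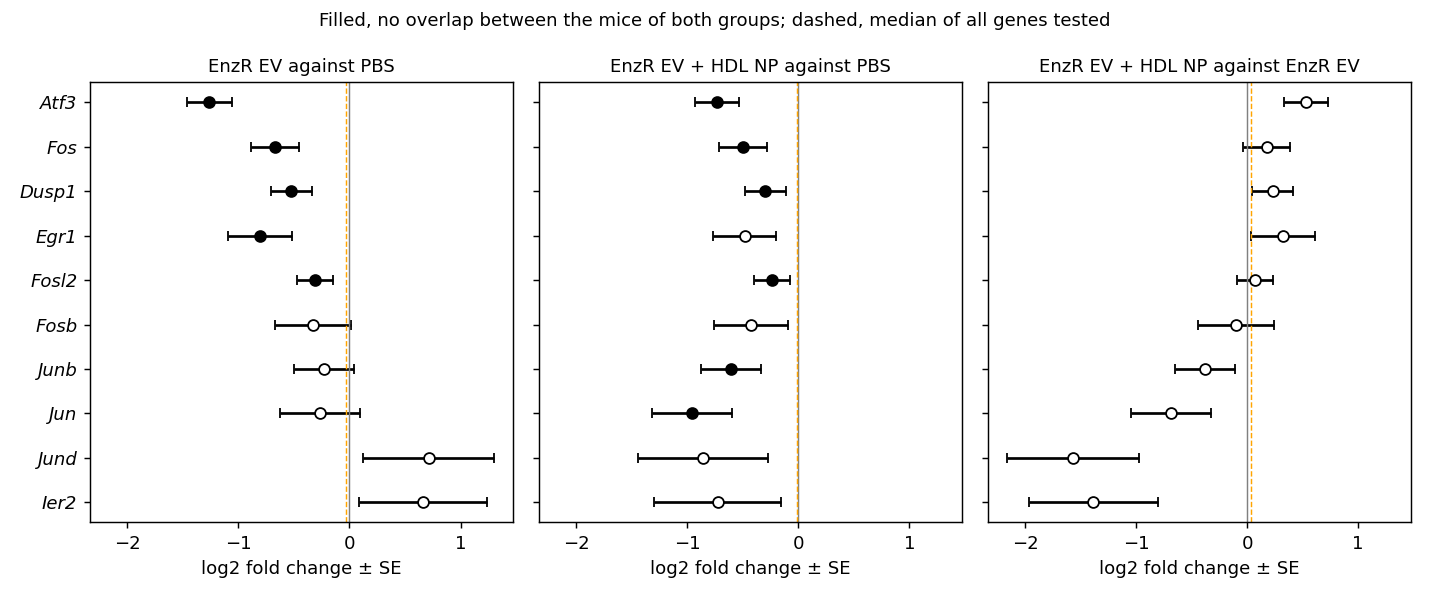
Fitted log2 fold change of each gene with its SE in the 3 comparisons, filled where the mice of the 2 groups did not overlap, with the median of all genes as a dashed line. Atf3 had the lowest value in EnzR EV against PBS (−1.26), all 10 lay below 0 in EnzR EV + HDL NP against PBS, and Jund and Ier2 carried the widest errors.

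The ratio of the vesicle groups depended on single mice. Without EnzR EV + HDL NP mouse 1, Atf3, Fosl2, Egr1 and Dusp1 were higher in every remaining mouse than in every EnzR EV mouse (14.2% of all genes), and without EnzR EV mouse 2 this held for Atf3 and Dusp1 (26.8%). Atf3 stayed above 0 in that comparison in every setting tried, between 0.24 and 0.74. In EnzR EV against PBS it ranged from −1.43 to −0.99, and Fos from −0.83 to −0.43. Dusp1 ranged from −0.69 to −0.24 and Egr1 from −0.99 to −0.26. For each of these genes the value nearest 0 was that without the 3 high-Rn45s libraries.

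Compared per kilobase of the longest protein-coding transcript, the order of levels in PBS mice was Fos (606 CPM per kb), Junb (287), Dusp1 (237), Ier2 (211), Jund (69.7), Fosl2 (58.1), Jun (57.1), Atf3 (44.8), Egr1 (38.4) and Fosb (9.84). Neighbours in that order did not overlap over mice between Fos and Junb, Junb and Dusp1, Ier2 and Jund, and Egr1 and Fosb, whereas Dusp1 overlapped Ier2, and each neighbouring pair from Jund down to Egr1 overlapped. In EnzR EV mice Ier2 moved to second place at 334 ± 237 (SD, n = 3), a mean carried by mice 1 and 3, and Atf3 to ninth at 18.6. In EnzR EV + HDL NP mice the order began with Fos (429), Dusp1 (193) and Junb (189) and ended with Egr1 (27.5), Atf3 (27.0) and Fosb (7.32).

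Over the 9 libraries, 2 sets of 3 genes are described for their like levels, without a sharp border to the other 4. The log2 CPM of Atf3 correlated with that of Fos (Pearson r = 0.91) and of Dusp1 (0.91), and that of Fos with Dusp1 (0.94), and after subtracting the group means these were 0.82, 0.79 and 0.87. Jund and Ier2 correlated at 0.95, Jun and Ier2 at 0.86 and Jun and Jund at 0.84, and within groups at 0.93, 0.92 and 0.84. Between these sets of genes the values ran from −0.31 (Fos and Ier2) to 0.13 (Atf3 and Jun). The other 4 genes were not sorted into these sets. Fosb was at 0.83 with Junb and 0.76 with Jund (0.85 and 0.89 within groups), as close as Jun to Jund, and at 0.36 with Atf3. Junb was at 0.71 with Jund and 0.50 with Fos. Fosl2 was at 0.71 with Atf3 and 0.32 with Jun, and Egr1 at 0.71 with Atf3, 0.53 with Jun and 0.18 with Ier2. Within groups Fosl2 was at 0.25 with Atf3 and 0.17 with Jun. Egr1 was then at 0.31 with Atf3, 0.70 with Jun and 0.50 with Ier2. These values are descriptions over 9 libraries that share groups and depth, and no p is given.

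**Figure D3:**
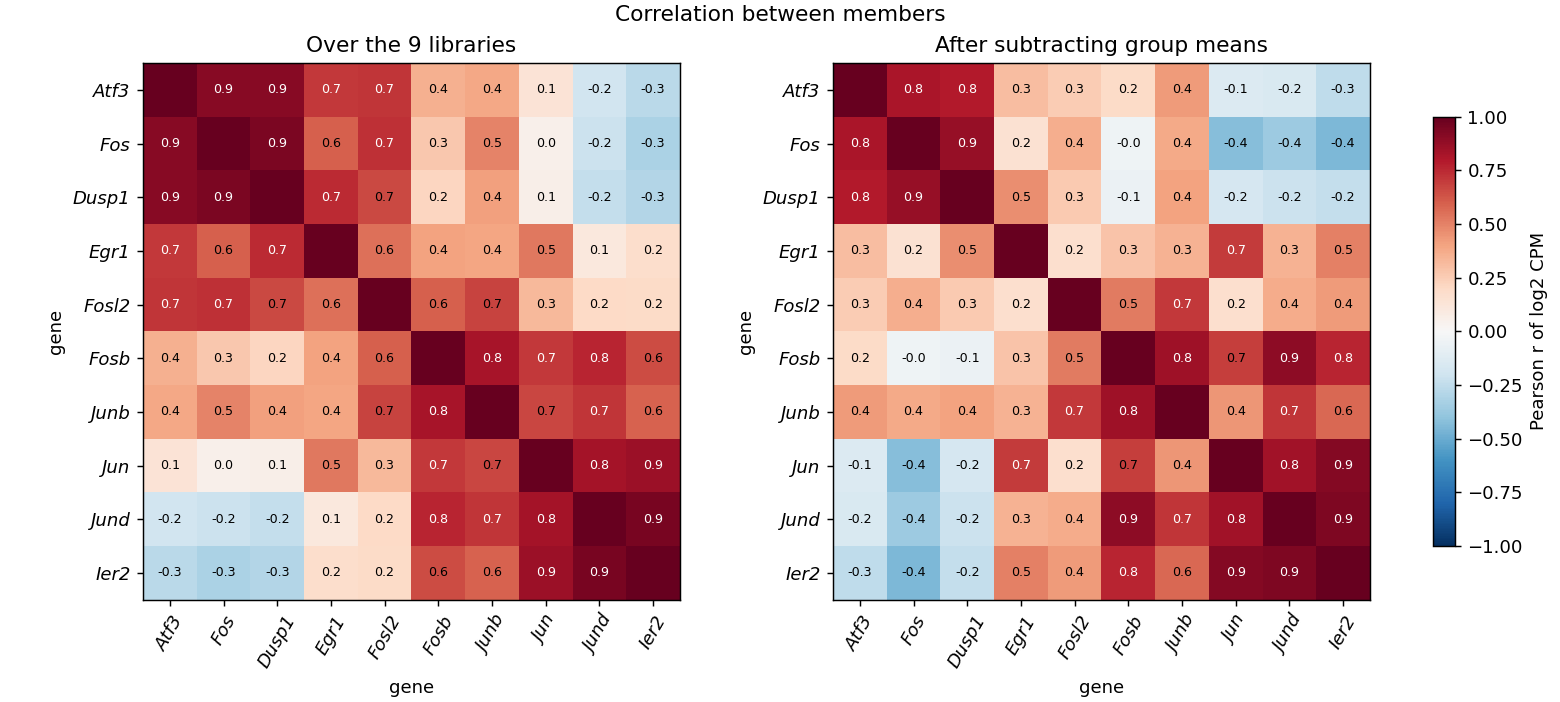
Pearson correlation of log2 CPM between the genes over the 9 libraries (left) and after subtracting group means (right). Atf3, Fos and Dusp1 form a block at 0.91 or more, and Jun, Jund and Ier2 a block at 0.84 or more, in the left panel.

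The set of Jun, Jund and Ier2 varied with the share of Rn45s and with library size. Correlations of their log2 CPM with log2 total counts were −0.77 for Jun, −0.94 for Jund and −0.94 for Ier2. The log2 CPM of Ier2 correlated with the log2 percentage of Rn45s at 0.98, ranking 34 of 7779 genes with a mean of at least 10 CPM, and Jund (0.90, rank 675) and Jun (0.87, rank 935) followed. Fosb (0.53) and Junb (0.47) lay between, Egr1 (0.16) and Fosl2 (0.08) near 0, and Atf3 (−0.32), Dusp1 (−0.36) and Fos (−0.39) below, where the median of all genes was −0.22 and 17.4% of genes exceeded 0.8. In the 6 libraries with 10% Rn45s or less, Ier2 was 188 to 211 in PBS, 170 in EnzR EV and 123 to 272 CPM in EnzR EV + HDL NP mice, and Jund was 74.5 to 84.0, 63.4 and 42.6 to 81.8. Atf3 in the same libraries was 82.0 to 97.7, 45.2 and 43.1 to 59.0. Its lowest values, 34.6 and 30.7 CPM, were in EnzR EV mice 1 and 3, both over 10% Rn45s. Without the 3 high-Rn45s libraries its log2 fold change in EnzR EV against PBS was −0.99. Without the 3 high-Rn45s libraries all 10 genes were lower in EnzR EV mouse 2 than in both remaining PBS mice, where 39.7% of all genes were. With 1 EnzR EV mouse left, the group and that mouse cannot be told apart. The part of the Rn45s share and of library size in the values of Ier2, Jund, Jun and Atf3 was not tested.

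**Figure D4:**
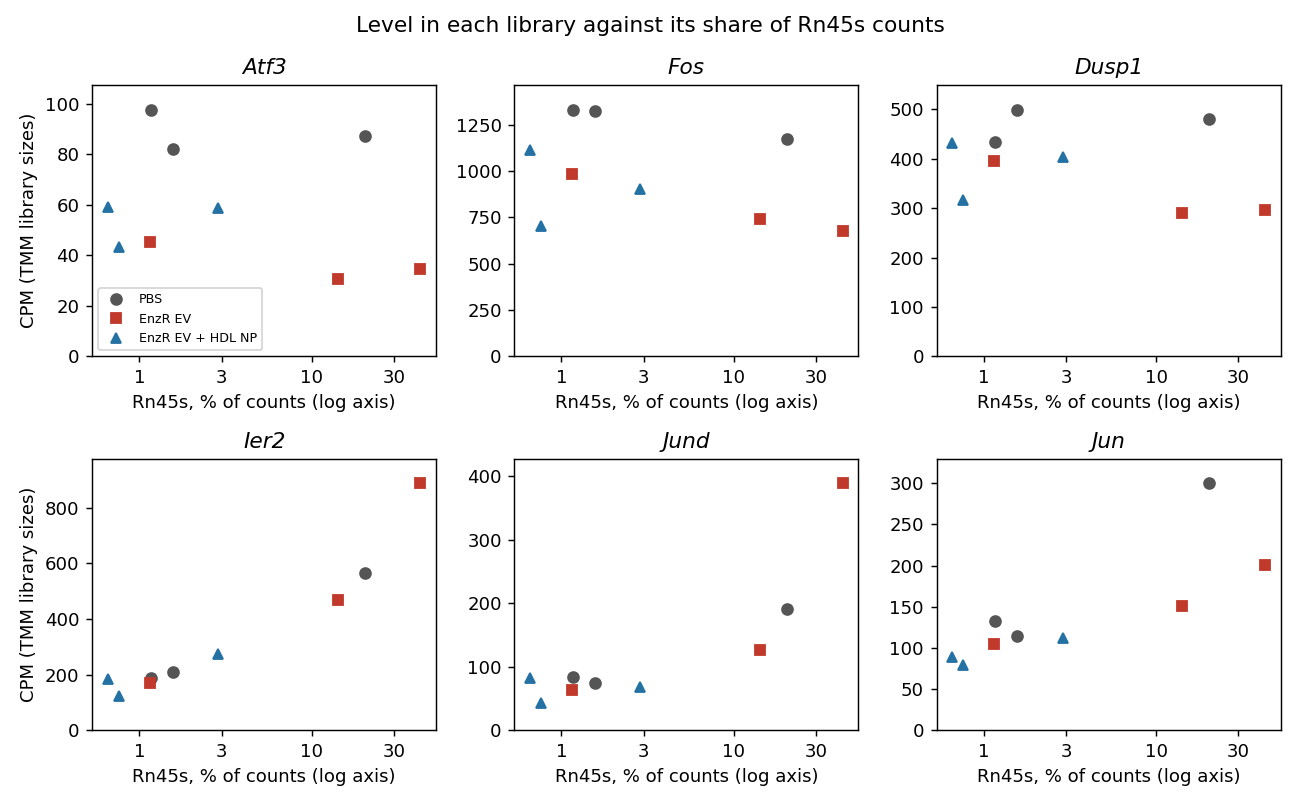
CPM in each library against its percentage of Rn45s counts (log axis), for the 3 genes of each set, with symbols by group. Ier2, Jund and Jun rise toward the 3 libraries over 10%. Atf3 in PBS mouse 1 (20.3% Rn45s) lies between the other PBS mice. In the 2 EnzR EV mice over 10% it is 30.7 and 34.6 CPM, below EnzR EV mouse 2 (45.2).

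Gene structure was read beside these values. Jun, Junb, Jund and Ier2 are single-exon genes, as were 2.49% of 10872 tested genes matched to an annotated transcript, while Atf3, Fos, Fosb, Fosl2 and Dusp1 have 4 exons and Egr1 has 2. The transcript GC content was 67.1% for Jund, 62.6% for Junb and 60.9% for Ier2, at percentiles 99.8, 98.9 and 97.4 of those genes, where the median was 50.1%. Jun, at 55.5%, was close to Dusp1 at 54.9%, and Atf3 was at 52.2% and Fos at 51.9%. Over genes with a mean of at least 10 CPM, the median correlation with Rn45s was 0.38 for single-exon and −0.23 for multi-exon genes, and 0.69 in the tenth of genes highest in GC and −0.61 in the lowest. Genes are not independent replicates, and these medians are descriptions.

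The genes most like Atf3 over the 9 libraries were Niacr1 (r = 0.96), the niacin and β-hydroxybutyrate receptor, Klf10 (0.92), an early gene of TGF-β, Dusp1, Fos and Cx3cr1 (0.91), the fractalkine receptor of monocytes. Niacr1 measured 61.4, 67.4 and 63.8 CPM in PBS mice, 29.6, 40.1 and 35.2 in EnzR EV mice, and 36.9, 47.3 and 45.2 in EnzR EV + HDL NP mice, so that PBS did not overlap either vesicle group. Most like Fos were Kremen1 (0.96), Niacr1 (0.95), Dusp1 (0.94), Stk17b (0.93) and March2 (0.92). With plain library sizes the first for Atf3 was Thbd (0.97) and for Fos Bcl10 (0.99), with Niacr1 among the first 5 of both. Klf10, Dusp1, Fos and Cx3cr1 were then not among the first 5 for Atf3, while Kremen1 and Dusp1 were still among those for Fos. The ranking thus depended on the scaling.

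Companion lists were read for the rest of the pathway. No gene of the 4 lists was called by edgeR or DESeq2 in any comparison. Of 46 tested early-response genes, 33 were lower and 13 higher in EnzR EV than in PBS mice, with a median log2 fold change of −0.14 against −0.03 over all genes, and 8 of them lay wholly below PBS, which 4.52% of all genes did. With HDL NPs, 38 were lower than PBS and 8 higher, with a median of −0.26. The 4 with the highest CPM were Mcl1, a survival factor, Btg1, Klf6 and Btg2. Btg2, an antiproliferative gene, measured 570, 660 and 649 CPM in PBS mice and 454, 474 and 550.2 in EnzR EV mice, without overlap, and its log2 fold change was −0.35 (SE 0.18). Klf6 (−0.11), Btg1 (0.16) and Mcl1 (0.32) overlapped in the same comparison, and Mcl1 reached 2246 in EnzR EV mouse 1 against 920.4 in mouse 2. Of 40 genes of this list with a mean of at least 10 CPM, 12 had a correlation over 0.8 with Rn45s, where 17.4% of all genes at that level did. Among them were Klf2, Zfp36, Myc and Mcl1. In the lists given below these were 4 of 11 AP-1 and ATF family genes, 6 of 25 MAPK cascade genes and 4 of 8 MAPK phosphatases and inhibitors. Mapkapk2, Dusp3 and Dusp5 were also over 0.8.

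Of 18 other AP-1 and ATF family genes, 14 were lower and 4 higher in EnzR EV than in PBS mice (median −0.19), and 9 and 9 in EnzR EV + HDL NP (median −0.01). Atf4, the effector of the integrated stress response, which switches on Atf3, measured 238, 243 and 239 CPM in PBS mice, 173, 189 and 162 in EnzR EV mice, and 204, 228 and 170 in EnzR EV + HDL NP mice. Both vesicle groups were below PBS for Atf4, with log2 fold changes of −0.46 (SE 0.16) and −0.26 (SE 0.16) and edgeR adjusted p of 0.93 and 1.00. Creb1 (−0.23), which binds the CRE, Atf6 (−0.34), a sensor of the endoplasmic reticulum, and Mafg (0.89), a small Maf protein, overlapped with PBS in EnzR EV mice. Mafg was 284 and 172 CPM in EnzR EV mice 1 and 3 and 70.9 in mouse 2, and its correlation with Rn45s was over 0.8.

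Kinases and phosphatases of the pathway had medians near 0 in EnzR EV against PBS. Of 26 genes of the MAPK cascade, SRF and its partner factors, 16 were lower and 10 higher in EnzR EV than in PBS mice (median −0.08), and 12 and 14 in EnzR EV + HDL NP (median 0.02). The stress kinase p38α gene Mapk14 had a log2 fold change of −0.02 (SE 0.16) in EnzR EV, Rps6ka1 −0.18 (SE 0.25) and Mapkapk2 0.21 (SE 0.19). Of 11 tested MAPK phosphatases and inhibitors 6 were lower and 5 higher (median −0.05), and 6 and 5 in EnzR EV + HDL NP (median −0.06). Dusp6, the phosphatase of ERK, measured 174, 201 and 182 CPM in PBS mice and 156, 163 and 182 in EnzR EV mice (log2 fold change −0.15, SE 0.17), overlapping PBS where Dusp1 did not. Dusp7 was −0.32 (SE 0.17) without overlap, and Dusp3 (0.04) and Dusp5 (0.92, SE 0.73) overlapped, Dusp5 with 65.3 CPM in EnzR EV mouse 1 and 7.7 to 8.9 in the others of that group.

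**Figure D5:**
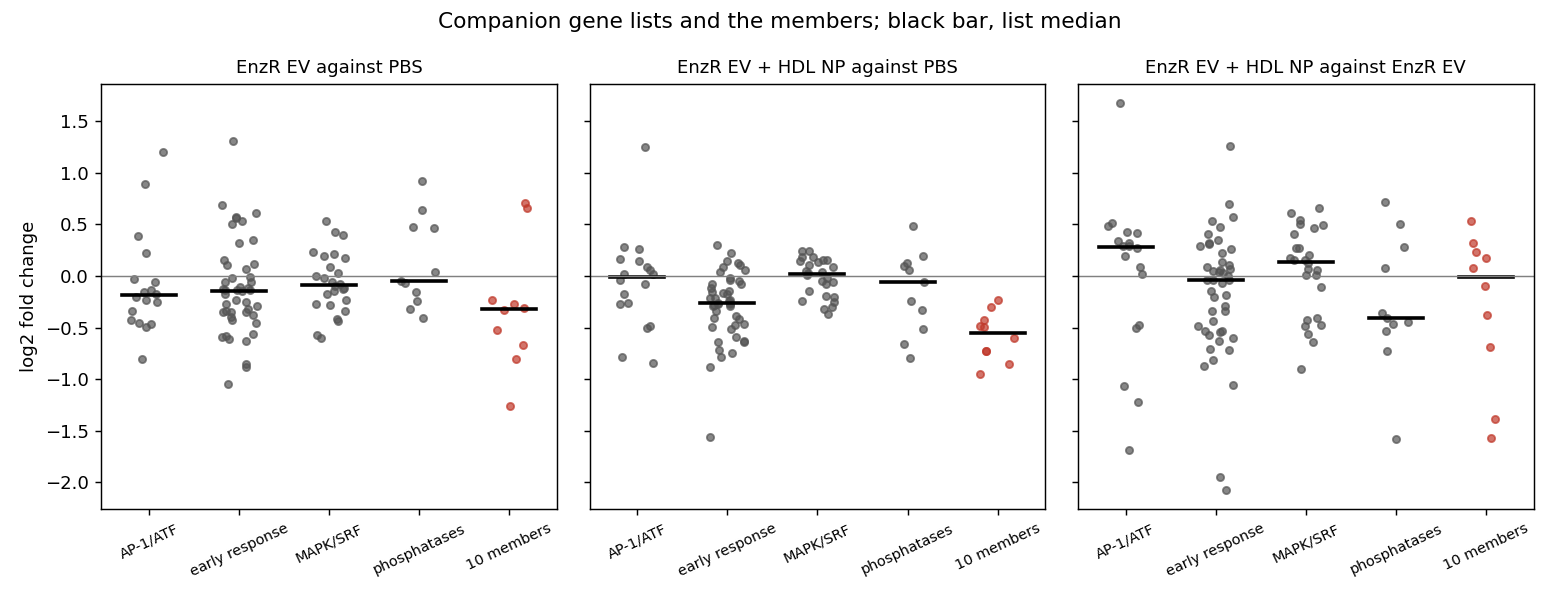
Fitted log2 fold change of each tested gene of the 4 companion lists and of the 10 genes (red) in the 3 comparisons, with list medians as black bars. In EnzR EV against PBS the medians were −0.19, −0.14, −0.08 and −0.05 for the lists and −0.32 for the 10 genes.

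Markers of cell types were read beside these values. Monocyte genes summed to 2336 to 2660 CPM in PBS, 1648 to 2670 in EnzR EV and 2058 to 2872 in EnzR EV + HDL NP mice, and macrophage genes to 424 to 788, 354 to 505 and 368 to 517. Within the macrophage list Cd5l (−1.07, SE 0.27) and Vcam1 (−0.71, SE 0.25) were lower in every EnzR EV than in every PBS mouse, and C1qb was 0.73 (SE 0.43). Of 8 monocyte genes 6 were lower and 2 higher in EnzR EV (median −0.24, from −0.61 to 0.46). Csf1r was at −0.30 (SE 0.19) and Ccr2 at −0.37 (SE 0.22), both overlapping PBS. Cx3cr1, the lowest of the 8, was at −0.61 (SE 0.17) without overlap. Granulocyte genes ranged from 53078 to 108654, 29854 to 118475 and 77739 to 139152. The 3 lowest granulocyte sums were those of the 3 libraries with over 10% Rn45s (53078 in PBS mouse 1, 29854 in EnzR EV mouse 1 and 64019 in EnzR EV mouse 3), the libraries in which Jun, Jund and Ier2 were highest, and their part in the values of these genes was not tested. Erythroid genes summed to 15.5 to 62.3 CPM over all libraries, with Hba-a1 and Hba-a2 at 0 counts, and B cell genes to 7.6 to 22.4. The T and NK cell sum was 31.6 to 80.7, the platelet sum 25.9 to 107.0, the dendritic cell sum 52.3 to 71.9, and the sum of eosinophil, basophil and mast cell genes 1269 to 3267. In EnzR EV against PBS all 4 tested erythroid genes were lower (median −0.88), as were all 6 B cell genes (−0.83). Lower too were 4 of 5 T and NK cell genes (−0.41), 6 of 7 platelet genes (−0.33) and 5 of 8 dendritic cell genes (−0.29). So were 6 of 7 eosinophil, basophil and mast cell genes (−0.48) and 7 of 9 granulocyte genes (−0.08). No other listed marker found in the tables was at 0 in a whole group. The part of cell composition in the values of Fos was not tested either.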

How the data were processed

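Ribosomal RNA-depleted total RNA from CD11b+ marrow cells (200 ng per library, single-end reads of 75 bases) was sequenced from 9 mice. The sample labels name TRIzol and the study's methods RNeasy for the RNA. The authors trimmed reads (cutadapt 1.13), filtered those on ribosomal RNA, aligned to mm10 with STAR and counted reads per gene (HTSeq 0.6.1p1), and the deposited values are raw counts per gene, 1 table per mouse. The submitters' processing notes also name DESeq2.

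Groups were taken from the sample labels. Genes were filtered with filterByExpr, scaled by TMM and fitted over all 9 libraries in the quasi-likelihood model of edgeR 4.0.16 (R 4.3.3), with no covariates and p-values adjusted over 12553 genes by Benjamini-Hochberg. SEs were derived from the same fits. DESeq2 1.42.0, limma voom 3.58.1, other scalings and filters, left-out libraries and a replicate block were alternatives. CPM used TMM library sizes, with a prior count of 2 on the log2 scale. The fits were tested on simulated data. The 10 genes, the companion lists and the marker lists were chosen with earlier results of these data known. Named beside the 10 genes were the 4 genes of highest mean CPM in each companion list, any of their genes called, and the 5 genes most correlated with Atf3 and with Fos. One of these is not reported here. Macrophage and monocyte markers, Klf2, Zfp36 and Myc, Thbd and Bcl10 were named after their values were seen. Replicate numbers were not treated as pairs. No 2 libraries of the same group agreed within sampling noise. Sequences came from RefSeq (GRCm38.p6) and transcript structure from GENCODE M21. Egr1 and Ier2 had no promoter entry.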

Additional observations from a re-analysis of the deposited data

How the results depend on the processing

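The direction of Atf3, Fos, Fosl2, Egr1, Dusp1, Junb and Fosb in EnzR EV against PBS, and of all 10 genes in EnzR EV + HDL NP against PBS, was the same in every alternative run. In EnzR EV against PBS Jun turned above 0 without PBS replicate 1 and without the 2 smallest libraries, and Jund and Ier2 turned below 0 without EnzR EV replicate 1 and without the 3 libraries over 10% Rn45s, the last an alternative added after seeing the data. The 10 genes below 0 numbered 7 to 10 in EnzR EV against PBS and 4 to 7 in EnzR EV + HDL NP against EnzR EV. Of the log2 fold changes recomputed, 493 stayed within the spread between mice and 17 moved by more. The sign changes of Jun, Jund and Ier2 just given are among the 493, since the spread of these genes included the mice left out. The tally is thus no measure of stability.

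Genes called in EnzR EV against PBS numbered 0 by edgeR, 14 by DESeq2, 1 with no filter on low counts, 5 without the 2 smallest libraries and 10 without the 3 high-Rn45s libraries. Leaving out each mouse gave 0 to 2, the 2 without PBS replicate 1. In EnzR EV + HDL NP against PBS DESeq2 called 2. In EnzR EV + HDL NP against EnzR EV 1 was called by DESeq2, and 1 each with 6 libraries only, without the 2 smallest and without the 3 high-Rn45s libraries. The cause was not tested. Of the 10 genes, those with every EnzR EV mouse below every PBS mouse numbered 5 to 7 over left-out mice (5.72% to 16.3% of all genes). They numbered 7 without the 2 smallest libraries (22.4%) and 10 without the 3 high-Rn45s libraries (39.7%). Over left-out mice, those higher in every EnzR EV + HDL NP than every EnzR EV mouse numbered 0 to 4 (12.1% to 26.8%). With a replicate block 1 gene was called in EnzR EV against PBS and 0 in the other comparisons. The block is not read as pairing, since each library came from a different mouse and the labels give only a number. Of 9 same-number pairs, 6 had a correlation of deviations over 0.1 (−0.18 to 0.49), and 5 of 9 libraries correlated best with their own number. All PBS and EnzR EV pairs were over 0.1 (0.47, 0.49 and 0.13). Within each number, Atf3, Fos, Egr1 and Dusp1 were higher in EnzR EV + HDL NP than in EnzR EV mice. Jun was lower within each number, and the other genes went both ways. Scaling by library size alone moved the median of all genes to −0.18, 0.05 and 0.24 in the 3 comparisons.

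Precision rested on 3 mice a group. The lowest count of these genes was 63 (Atf3 in EnzR EV mouse 1), where counting error is not negligible. The spread of Atf3 between mice (SD as a share of the mean) was 8.96% in PBS and 20.4% in EnzR EV. The parts of counting error and of the spread between mice were not separated.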
